A study of Atriplex prostrata and Atriplex rosea and Atriplex prostrata x Atriplex rosea with 87 samples.

Results

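Whole leaves of 5 mm length were compared between the C4 plant Atriplex rosea and its C3 relative Atriplex prostrata. The comparison rests on 6 of the 87 samples in the series, 3 libraries per species, chosen by their species and leaf length, and all 6 had leaves at a leaf plastochron index of -0.7, a developmental age derived from leaf lengths. Both species grew in chambers with a 17 h day at 27 °C and a 7 h night at 22 °C, under a photon flux of about 500 µmol per square metre and second and with Hoagland fertilizer, and no other treatment is named. Leaves were taken 2 h after the lights came on. The design text calls the replicates biological triplicates without saying which plants or pots they came from. Leaves of 1 mm (index -1.3, 3 libraries per species) and of 7.5 mm (index -0.35, leaf 9 and leaf 10, 6 libraries per species) served as neighbouring ages.

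In C3 leaves Rubisco fixes carbon dioxide directly in mesophyll chloroplasts. In C4 leaves, phosphoenolpyruvate carboxylase first fixes bicarbonate in the mesophyll, 4-carbon acids move to the bundle sheath around the veins, and a decarboxylase frees carbon dioxide there beside Rubisco. In plants of the NAD-malic enzyme type, to which C4 Atriplex species belong, aspartate is the main acid transported, malate is decarboxylated in bundle sheath mitochondria, and alanine returns to the mesophyll, where pyruvate, phosphate dikinase remakes phosphoenolpyruvate. The young leaf is the stage at which veins, bundle sheath and chloroplasts are being formed.

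The libraries held 9111221 to 9502676 counts in prostrata and 7647689 to 11172281 in rosea, each count a read assigned to a locus of Arabidopsis thaliana. A low value can therefore reflect Atriplex reads that diverge from the Arabidopsis sequence, reads of 1 Atriplex gene can be split among Arabidopsis paralogs, and genes and their antisense partners cannot be told apart because no strand information is stated. Values below are CPM, the count scaled to an equal library size, in the order of replicates 1 to 3, and compare the same locus between species. Lane sharing and read length (100 or 150 bases) are not given per library, so they cannot be told apart from species. Within a species the 3 libraries had Spearman correlations of 0.991 to 0.994 across loci, against 0.921 to 0.932 between species. Chi-square per degree of freedom, which is 1 for sampling noise alone, was 4.31 to 6.19 within a species and 51.5 to 83.6 between them, so no library repeated another.

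Markers of the shoot apex were low, and markers of dividing and of green leaf cells were read in every library. STM (AT1G62360), which keeps shoot meristem cells undifferentiated, stood at 0.357, 0.663 and 0.534 CPM in prostrata and 0.870, 0.362 and 0.173 CPM in rosea. In 1 mm leaves it had been at 25.4 to 28.6 CPM and 23.6 to 29.9 CPM. WUS and CLV3, the other central meristem markers, had 2 and 0 counts over the 3 prostrata libraries and 0 and 0 in rosea. CYCB1;1 (AT4G37490), a mitotic cyclin, was read in every library at 57.2 to 61.3 CPM in prostrata and 47.0 to 54.2 CPM in rosea, and the light-harvesting gene LHCB3 (AT5G54270) at 1746 to 1879 and 2251 to 2533 CPM. Neither CYCB1;1 nor LHCB3 passed the test between species, with log2 fold changes of -0.21 (SE 0.27, adjusted p = 0.527) and 0.38 (SE 0.25, adjusted p = 0.211). These single markers do not stand for their lists, whose medians were -0.49 for cell division and 0.76 for photosystem II. In the list for shoot meristem and organ boundaries 2 loci were lower in rosea, KNAT1 at -4.92 among them, and 1 was higher.

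Of 14779 loci tested, 1541 (10.4%) were higher and 1452 (9.82%) lower in rosea, at an adjusted p under 0.05 and a change of at least 1 on the log2 scale in edgeR's quasi-likelihood test with Benjamini-Hochberg adjustment. Loci past both limits are referred to as called. Of these, 276 were higher and 233 lower by at least 3 on that scale. Libraries of the species did not overlap at 9991 loci (67.6%), and 2947 of the 2993 called loci (20.3% of those tested) were among them. An adjusted p under 0.05 alone took in 3475 higher (23.5%) and 3900 lower loci (26.4%). Over all loci the median log2 fold change was -0.04. Scaling by library totals moved that median to -0.20 and the calls to 1231 higher and 1917 lower, so that 39.1% of calls were higher rather than 51.5%. The size factors of DESeq2 moved them the other way, to a median of 0.002 with 1646 higher and 1356 lower. With those factors 54.8% of calls were higher. All changes are given relative to the first scaling. The authors' deposited table lists 6325 of the loci tested with a q-value under 0.05 for the same libraries, of which 6297 were also under 0.05 here, all in the same direction.

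**Figure D1:**
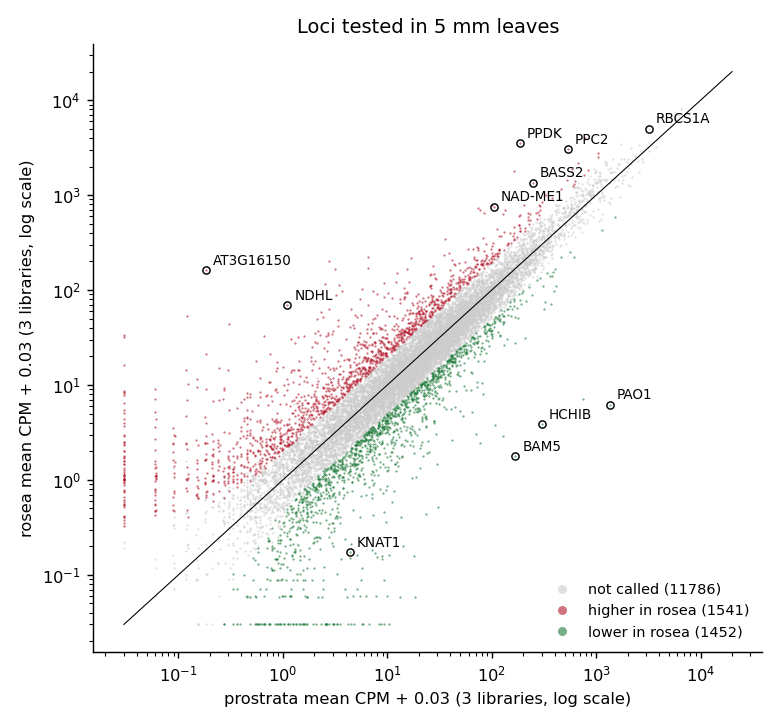
Mean CPM of each tested locus in 5 mm leaves of prostrata (horizontal) and rosea (vertical), 3 libraries each, with 0.03 CPM added, on log axes; the line marks equal values. Red points are the 1541 loci called higher in rosea, green points the 1452 called lower and grey points the rest, and circled loci are named in the text.

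Every called enzyme or carrier of the C4 cycle was on the rosea side at this length. Over 5 lists that follow the cycle step by step, 24 of 40 tested loci were higher in rosea and 0 lower, with a median log2 fold change of 1.45, against 10.4% higher, 9.82% lower and a median of -0.04 over all loci. All 24 had rosea libraries entirely above the prostrata libraries. The species also did not overlap at 2947 of the 2993 called loci and at 67.6% of all loci. The shares of 10.4% higher and 9.82% lower over all loci are the background for the counts of every list below. Lists and members were chosen with earlier results of these data known, so setting them beside that background is not a test. Paralogs that may share reads of 1 Atriplex gene count as separate loci. In leaf material a difference in the share of a cell type and one in RNA per cell cannot be told apart.

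Carboxylation was represented by 9 tested loci, of which 4 were higher in rosea and 0 lower (median 0.50). PPC2 (AT2G42600), a phosphoenolpyruvate carboxylase, was at 474, 594 and 530 CPM in prostrata and 2518, 2887 and 3720 CPM in rosea. Its log2 fold change was 2.51 (SE 0.33, adjusted p = 4.68e-08), and the lowest rosea library was above the highest prostrata library. PPC1 (AT1G53310), its close relative, had 722, 869 and 777 CPM against 3370, 3759 and 4886 CPM, a change of 2.34 (SE 0.32). The values of PPC1 and PPC2 moved together across libraries, and reads of 1 Atriplex gene may be divided between them. The carbonic anhydrases BCA1 (AT3G01500) and BCA3 (AT1G23730), which supply bicarbonate, were higher by 2.98 (SE 0.42) and 3.08 (SE 0.36). BCA1 was at 95.2, 116 and 88.2 CPM in prostrata and 660, 797 and 913 CPM in rosea. PPC4, a bacterial-type carboxylase, the carboxylase kinases PPCK1 and PPCK2, and the carbonic anhydrases BCA5 and BCA6 had log2 fold changes of -0.05 to 0.50 and were not called.

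Of 9 loci for aminotransferases and malate dehydrogenases, 6 were higher and 0 lower (median 2.17). Alanine aminotransferase ALAAT1 (AT1G17290), which interconverts pyruvate and alanine, was at 163, 191 and 140 CPM in prostrata and at 1494, 1823 and 2113 CPM in rosea, with rosea over prostrata at 3.46 in log2 (SE 0.37, adjusted p = 7.14e-10). The mitochondrial aspartate aminotransferase ASP1 (AT2G30970) had 75.2, 86.1 and 72.6 CPM against 661, 624 and 783 CPM (3.14, SE 0.31). For both enzymes the species were separated by several times the spread among their own libraries. The relatives ASP2, ASP3 and ASP4 were higher by 2.3, 2.17 and 2.87. In contrast ASP5 (AT4G31990), the chloroplast isoform, stood at 234 to 281 CPM in prostrata and 163 to 175 CPM in rosea. Its log2 change of -0.57 (SE 0.15 and adjusted p = 0.0015) did not reach the fold limit. ASP2, ASP3 and ASP4 are near relatives and are uncertain as single genes. NADP-MDH (AT5G58330), the chloroplast malate dehydrogenase, was higher by 1.29 (SE 0.15), and the mitochondrial MMDH1 and cytosolic CMDH1 were not called at 0.83 and 0.19.

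Among the decarboxylases, both subunits of NAD-malic enzyme were higher in rosea and the remaining 5 of 7 loci were not called (median 0.55). NAD-ME1 (AT2G13560) was at 108, 97.0 and 107 CPM in prostrata and 695, 678 and 890 CPM in rosea, with rosea over prostrata at 2.86 in log2 (SE 0.28, adjusted p = 1.21e-10). NAD-ME2 (AT4G00570) was at 150, 133 and 121 CPM against 660, 653 and 776 CPM, a change of 2.37 (SE 0.24, adjusted p = 2.3e-10). The NADP-malic enzymes NADP-ME1, NADP-ME2 and NADP-ME4, the decarboxylases of another C4 type, had log2 fold changes of -0.24, -0.17 and -0.18, and these 3 paralogs had closely similar values in every library. Phosphoenolpyruvate carboxykinase loci PCK1 and PCK2 were at 0.853 to 2.51 CPM in all 6 libraries, with log2 fold changes of 0.55 (SE 0.39) and 0.94 (SE 0.31) that were not called. PCK2 passed without prostrata replicate 1 (1.00), prostrata replicate 3 (1.06) or rosea replicate 2 (1.01).

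All 5 loci for the return from pyruvate to phosphoenolpyruvate were higher in rosea (median 3.30). PPDK (AT4G15530), pyruvate, phosphate dikinase, had 190, 184 and 179 CPM in prostrata and 3153, 3259 and 4156 CPM in rosea, a log2 change of 4.25 (SE 0.36 and adjusted p = 1.79e-12). Its regulatory proteins RP1 (AT4G21210) and RP2 (AT3G01200), which switch the dikinase between light and dark, were at 1.16 to 2.84 and 0.446 to 1.52 CPM in prostrata and at 26.6 to 29.9 and 9.94 to 10.7 CPM in rosea, higher by 3.82 (SE 0.31) and 3.22 (SE 0.39). The dikinase releases AMP and pyrophosphate. The chloroplast adenylate kinase AMK2 (AT5G47840), which recycles AMP, stood at 35.5, 35.1 and 35.7 CPM against 317, 339 and 390 CPM (3.30, SE 0.25, adjusted p = 6.3e-14). The chloroplast pyrophosphatase PPA6 (AT5G09650) was higher by 1.96 (SE 0.24).

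Of 10 transporter loci, 7 were higher and 0 lower (median 1.33). BASS2 (AT2G26900), the sodium-coupled pyruvate carrier of the chloroplast envelope, was at 237, 265 and 238 CPM in prostrata and 1278, 1290 and 1506 CPM in rosea, with rosea over prostrata at 2.46 in log2 (SE 0.24, adjusted p = 5.41e-11). TPT, the triose phosphate carrier, PPT1 and PPT2, which export phosphoenolpyruvate, and DIT1, a dicarboxylate carrier, were higher by 1.71, 1.3, 1.62 and 1.54. DIC1 (AT2G22500), a mitochondrial dicarboxylate carrier, was at 35.4, 27.4 and 27.8 CPM against 66.3, 72.2 and 95.2 CPM (1.37, SE 0.35, adjusted p = 0.00148). DIC2 (AT4G24570) passed at 1.05 (SE 0.35, adjusted p = 0.0129) and was at 0.89, under the fold limit, when library totals were used for scaling. Its call was also lost without prostrata replicate 2 (0.99), prostrata replicate 3 (0.98) or rosea replicate 3 (0.88). DIT2.2, DIC3 and DTC were not called, at -0.06, 0.11 and 0.35.

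**Figure D2:**
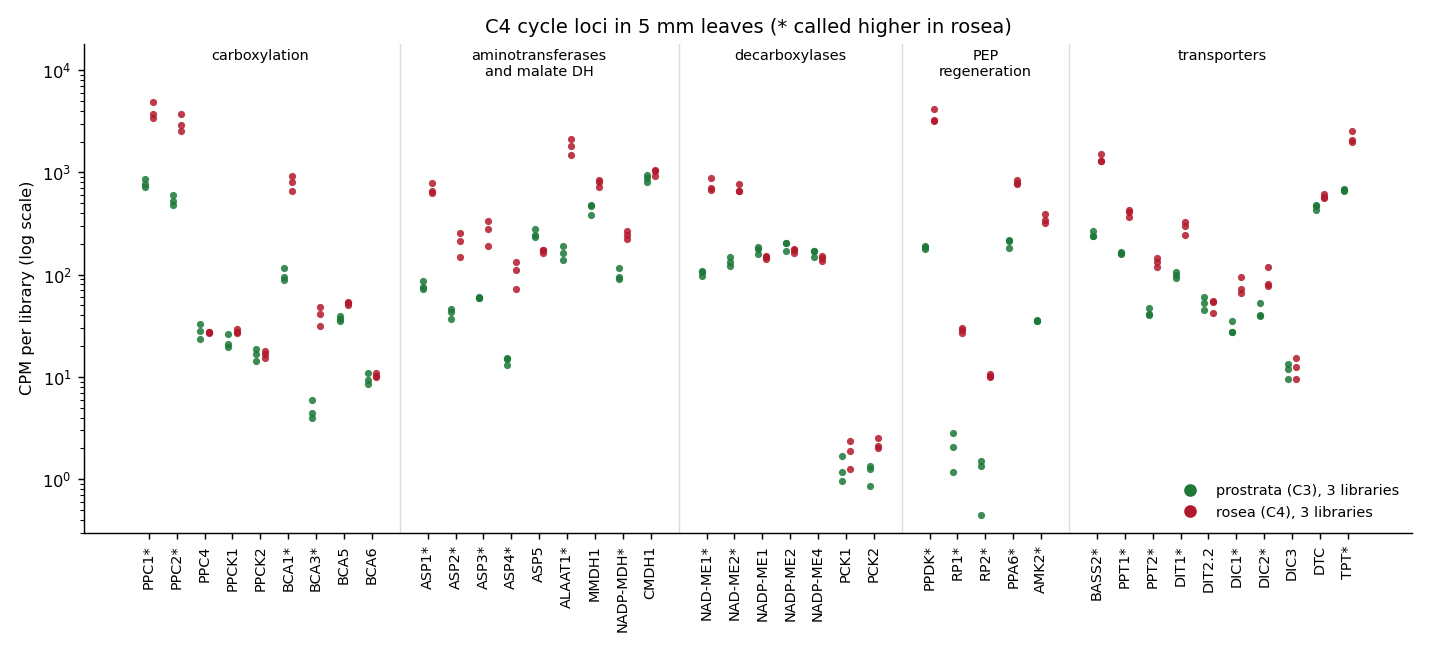
CPM of the 40 tested C4 cycle loci in each library of 5 mm leaves, on a log axis, grouped by step of the cycle. Each point is 1 library, green for prostrata and red for rosea. An asterisk marks the 24 loci called higher in rosea, at all of which the red points lie above the green ones. Over all loci, the species did not overlap at 2947 of the 2993 called.

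Cyclic electron transport around photosystem I makes ATP without net NADPH, and runs through the chloroplast NADH dehydrogenase-like (NDH) complex and through a pathway with PGR5. Of 19 nuclear loci for these routes, 17 were higher in rosea and 0 lower, with a median log2 fold change of 3.67. The libraries of the species did not overlap at any of the 19, beside 67.6% of all loci without overlap. NDHL (AT1G70760), a membrane-anchoring NDH subunit, was at 0.804, 1.42 and 0.978 CPM in prostrata and 57.9, 76.3 and 74.5 CPM in rosea, a log2 change of 6.02 (SE 0.39 and adjusted p = 2.09e-15). PNSB5 (AT5G43750) and PNSL2 (AT1G14150), parts of subcomplexes that attach to the complex, were at 2.23 to 2.75 and 2.49 to 4.38 CPM in prostrata and at 102 to 127 and 112 to 113 CPM in rosea. Their log2 fold changes were 5.53 (SE 0.37) and 5.04 (SE 0.37). PGR5 (AT2G05620), at 42.0, 41.8 and 35.1 CPM against 81.9, 87.6 and 85 CPM, was higher by 1.1 (SE 0.25) and by 0.94, under the fold limit, with library totals. PNSL5 and PGRL1B were not called, at 0.43 and 0.83. LHCA5 (AT1G45474) and LHCA6 (AT1G19150), antenna proteins that link the NDH complex to photosystem I, were higher by 3.60 (SE 0.32) and 2.64 (SE 0.29), more than the other 11 loci of the photosystem I list, which lay between 0.61 and 1.4.

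Lists of the photosystems and of chlorophyll synthesis had medians of 0.76 to 1.06. In the photosystem I list 7 of 13 loci were higher and 0 lower (median 1.06), including PSAN at 1.4 (SE 0.31) and PSAO at 1.32 (SE 0.27), subunits of the core. With library totals 4 of 13 were higher, and with the size factors of DESeq2 8 of 13. In the photosystem II list 1 of 15 was called, PSBY at 1.66 (SE 0.26), although the median was 0.76 and 10 loci had an adjusted p under 0.05. A second, LHCB2.2 (0.99, SE 0.27), passed with the size factors of DESeq2 (1.04). Of 13 chlorophyll synthesis loci 4 were higher: the magnesium chelatase subunit CHLD (1.13, SE 0.21), HEMC (1.09, SE 0.18), CHLG (1.02, SE 0.18) and CHLM (1.01, SE 0.21). That count rests on the fold limit, since it was 0 with library totals, 6 with the size factors of DESeq2 and 2 without prostrata replicate 3, while 11 loci had an adjusted p under 0.05. Among 13 chloroplast regulators and division genes, GLK1 (AT2G20570), a transcription factor that turns on photosynthesis genes, was the 1 called, at 1.09 (SE 0.21), and it was under the fold limit with library totals (0.93) and without prostrata replicate 1 (0.99).

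Calvin-Benson cycle loci were higher at 9 of 17 and lower at 1 (median 1.28). With the size factors of DESeq2 10 were higher and 1 lower. The small Rubisco subunit locus RBCS1A (AT1G67090) was at 2811, 3655 and 3062 CPM in prostrata and 4663, 4900 and 5471 CPM in rosea, with rosea over prostrata at 0.66 in log2 (SE 0.29, adjusted p = 0.0526), and Rubisco activase RCA (AT2G39730) at 1693, 1786 and 1658 CPM against 2238, 2305 and 2583 CPM, a change of 0.47 (SE 0.26, adjusted p = 0.137). Neither passed the test, although the libraries of the species did not overlap at either locus, as was the case at 67.6% of all loci. RBCS3B (AT5G38410) was higher by 1.69 (SE 0.30), and because the small subunit is a family of near copies the split between RBCS1A and RBCS3B is uncertain. The cycle enzymes HCEF1, a fructose bisphosphatase, and SBPASE, sedoheptulose bisphosphatase, were higher by 1.6 (SE 0.27) and 1.57 (SE 0.25), and CP12-2, which holds cycle enzymes in an inactive complex in the dark, by 1.82 (SE 0.26). CP12-3 (AT1G76560) was the lower locus, with 32 counts over the prostrata libraries and 3 over the rosea libraries, 9.90 times as many per scaled total (exact 95% interval for counting error 3.10 to 50.5).

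Photorespiration, which salvages the product of Rubisco's reaction with oxygen, had 4 of 19 loci higher and 0 lower (median 0.23). Over all loci 10.4% were higher and 9.82% lower. GLDH2 (AT2G35120), an H protein of glycine decarboxylase, was at 10.7, 7.86 and 7.83 CPM in prostrata and 63.8, 64.0 and 61.9 CPM in rosea (2.84, SE 0.20, adjusted p = 2.18e-14). The other H protein locus tested, GLDH3, was at 318 to 331 CPM and 302 to 333 CPM (-0.02, SE 0.21), and the P protein GLDP2 at 789 to 860 CPM against 475 to 601 CPM (-0.59, SE 0.30, adjusted p = 0.103). The plastid glycolate and glycerate carrier PLGG1 (1.38, SE 0.26), glutamine synthetase GS2 (1.05, SE 0.21) and the T protein GLDT (1.02, SE 0.25) made up the other called loci. GS2 and GLDT fell under the fold limit with library totals, at 0.89 and 0.86, and GLDT also without prostrata replicate 3 (0.97) or rosea replicate 3 (0.99).

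**Figure D3:**
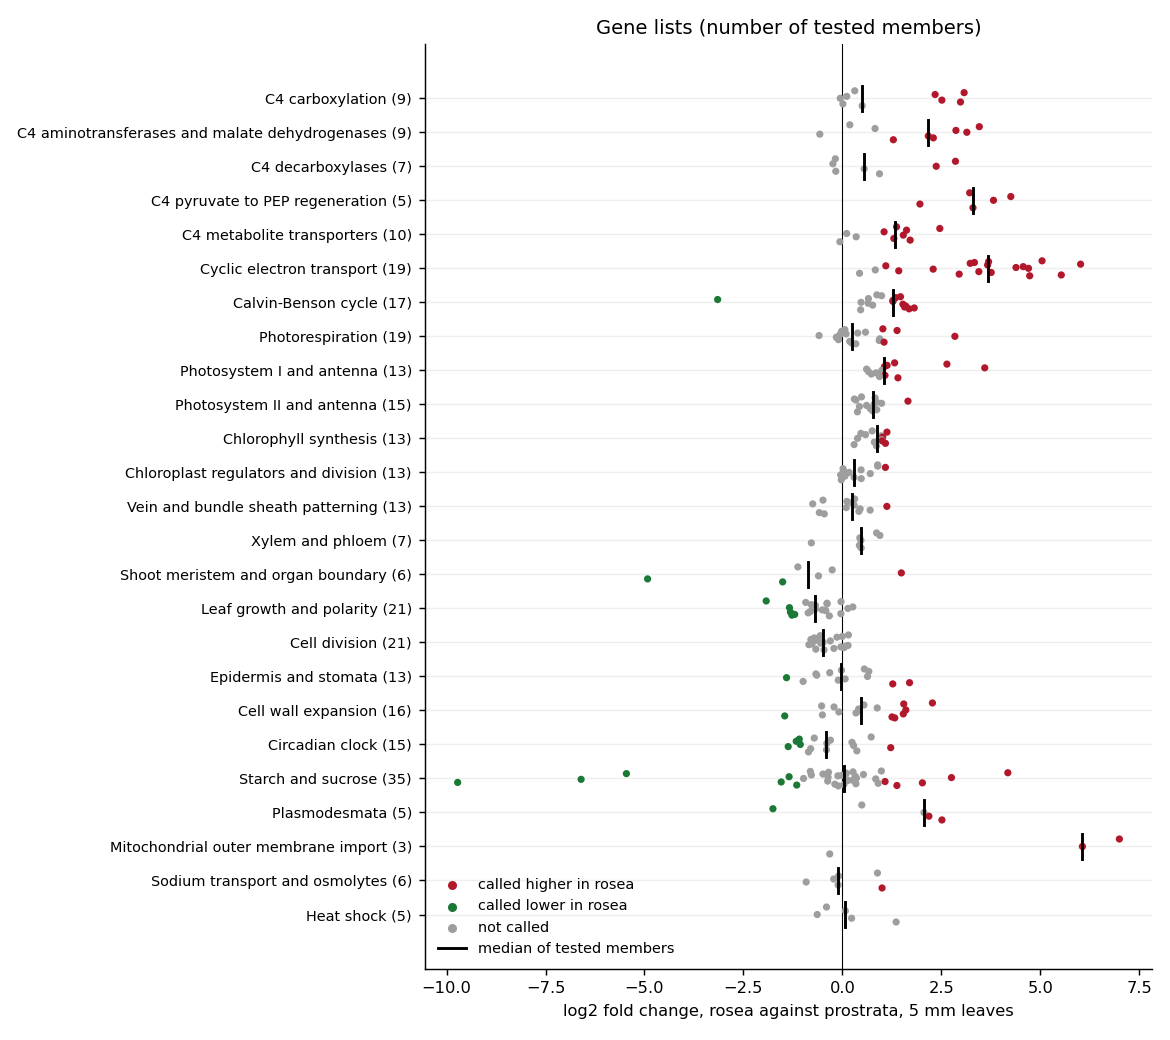
Log2 fold change of rosea against prostrata in 5 mm leaves for each tested member of the 25 gene lists, with the number tested in brackets. Each point is 1 locus, red where called higher in rosea, green where called lower and grey where not called; black bars are medians. The lists of phosphoenolpyruvate regeneration and cyclic electron transport lie to the right, with medians of 3.30 and 3.67.

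The called genes of leaf growth were all lower in rosea. Of 21 loci for growth and polarity, 5 were lower and 0 higher (median -0.68), and 12 were lower by the adjusted p alone. CYP78A5 (AT1G13710), a cytochrome P450 that prolongs organ growth, was at 13.7, 11.1 and 14.8 CPM in prostrata and 4.35, 3.08 and 3.12 CPM in rosea (-1.92, SE 0.47, adjusted p = 0.000908). The growth-promoting transcription factors GRF3 and ANT and the coactivator AN3 had log2 fold changes of -1.34 (SE 0.26), -1.31 (SE 0.24) and -1.27 (SE 0.29). ANT (AT4G37750) was at 91.3, 76.5 and 95.3 CPM against 40.6, 29.6 and 36 CPM, with no overlap between the species. The fifth was KAN1, which sets the lower leaf side, at -1.2 (SE 0.37), a call lost without prostrata replicate 1 (-0.96, adjusted p = 0.0548) or rosea replicate 3 (-0.96, adjusted p = 0.0599). Of the 21 cell division loci 0 were called here and in DESeq2 (median -0.49, range -0.85 to 0.15), CYCB1;3 was lower with library totals (-1.01, adjusted p = 0.00462), and 7 were lower and 0 higher by the adjusted p alone. Their summed level was 3481 to 3938 CPM in prostrata and 2538 to 3013 CPM in rosea.

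In the list for shoot meristem and organ boundaries, 6 loci had enough counts to be tested, 2 were lower and 1 higher. KNAT1 (AT4G08150), a homeobox gene of the shoot apex and stem, was at 4.55, 4.07 and 4.36 CPM in prostrata and 0.248, 0.181 and 0 CPM in rosea, where it had 4 counts in all (-4.92, SE 0.54, adjusted p = 1.05e-09). The boundary genes CUC2 and CUC3 moved in opposite directions, with log2 fold changes of -1.51 (SE 0.48) and 1.49 (SE 0.26) at levels of at most 2.98 CPM. The CUC2 call was lost without rosea replicate 1 (-1.06, adjusted p = 0.0573). STM did not pass (-0.26, SE 0.80, adjusted p = 0.809) and changed sign without rosea replicate 3.

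Of 13 tested regulators of veins and bundle sheath 1 was higher and 0 were lower (median 0.23), beside 10.4% and 9.82% over all loci. The higher locus was TMO5 (AT3G25710), a vascular division factor. It was at 2.22 to 3.39 CPM in prostrata and 5.09 to 6.85 CPM in rosea (1.12, SE 0.25, and 0.96 with library totals). SHR, which moves from veins to set the surrounding cell layer, had a log2 fold change of 0.70 (SE 0.15), and its partner SCR 0.10 (SE 0.16). Of 7 xylem and phloem loci 0 were called here and in DESeq2 (median 0.47), and 4 were higher by the adjusted p alone. The xylem loci XCP1, XCP2, IRX3 and VND7 had log2 fold changes of 0.43, 0.86, 0.47 and 0.44, and the phloem loci SUC2, APL and SWEET11 had 0.95, 0.47 and -0.78. Without prostrata replicate 2 XCP2 (1.03) and SUC2 (1.16) were called, and without rosea replicate 1 SUC2 (1.07).

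The epidermal and stomatal list had 2 of 13 loci higher and 1 lower (median -0.02), beside 10.4% higher and 9.82% lower over all loci. SPCH (AT5G53210), which starts the stomatal lineage, was at 17.9, 18.0 and 16 CPM in prostrata and 38.3, 45.6 and 41.4 CPM in rosea (1.27, SE 0.42, adjusted p = 0.0111), and EPFL9, a peptide that promotes stomata, was higher by 1.70 (SE 0.36). MUTE and FAMA, which act after SPCH in the lineage, were not called, at 0.07 (SE 0.52) and -0.10 (SE 0.15). The receptor kinase ERECTA (AT2G26330), which restrains stomata and promotes growth, was at 1110, 1025 and 1252 CPM against 456, 407 and 411 CPM (-1.41, SE 0.29, adjusted p = 9.08e-05).

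Of 16 cell wall expansion loci 6 were higher and 1 lower (median 0.48), beside 10.4% and 9.82% over all loci. The called loci were all xyloglucan endotransglucosylases, enzymes that cut and rejoin wall xyloglucan, and none was an expansin. XTH33 had the highest log2 fold change, 2.27 (SE 0.45), with 0.804 to 2.65 CPM in prostrata and 5.03 to 9.78 CPM in rosea. XTH9 (AT4G03210) was lower, at 669, 615 and 572 CPM against 279, 208 and 190 CPM (-1.46, SE 0.23, adjusted p = 1.89e-06).

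Clock genes were sampled at the same time after dawn in both species. Of 15 tested, 1 was higher and 4 lower (median -0.40), beside 10.4% and 9.82% over all loci. PRR7 (AT5G02810) and PRR9 (AT2G46790), repressors expressed in the morning and by day, were at 99.8 to 109 and 73.2 to 91.9 CPM in prostrata and at 39.5 to 41.9 and 35.5 to 38.5 CPM in rosea. Their log2 fold changes were -1.37 (SE 0.13) and -1.17 (SE 0.13). FKF1 and LUX were lower by the same rule, at -1.09 and -1.06, and RVE1 was higher by 1.22. LUX was under the fold limit without prostrata replicate 1 (-0.90), rosea replicate 2 (-0.89) or rosea replicate 3 (-0.88). The morning loop genes CCA1 and LHY, which peak near dawn, were not called, at 0.24 (SE 0.24) and 0.73 (SE 0.26).

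The list for starch and sucrose held the widest range, with 5 of 35 loci higher, 6 lower and a median of 0.04. Of the lower calls, SUS2 (-1.15) and SUS4 (-1.35) were lost without prostrata replicate 2 (-0.96 and -0.91), which left 4 lower. With library totals 4 were higher and 7 lower, and with the size factors of DESeq2 6 were higher and 6 lower. Over all loci 10.4% were higher and 9.82% lower. CYFBP (AT1G43670), the cytosolic fructose bisphosphatase of sucrose synthesis, was at 5.54, 5.31 and 6.23 CPM in prostrata and 89.7, 112 and 108 CPM in rosea (4.18, SE 0.36, adjusted p = 2.46e-12). SEX4, a phosphatase needed for starch breakdown, and APL1, a subunit of the starch enzyme ADP-glucose pyrophosphorylase, were higher by 2.76 (SE 0.20) and 2.02 (SE 0.26). Many beta-amylases release maltose, and those named here were lower in rosea or not called. BAM5 (AT4G15210) had 162, 180 and 159 CPM against 2.11, 1.72 and 1.39 CPM (-6.60, SE 0.41), and BAM6 (AT2G32290) 128, 142 and 116 CPM against 2.24, 3.53 and 2.86 CPM (-5.46, SE 0.35). BMY3 (AT5G18670) had 339 counts over the prostrata libraries and 0 in rosea, at least 105-fold lower there against a floor of 3 counts over the group. BAM1 and BAM3, which are chloroplast beta-amylases, were not called, at -0.11 (SE 0.30) and 0.12 (SE 0.48). MEX1, which exports maltose from the chloroplast, was lower by 1.55 on the log2 scale (-1.55, SE 0.19).

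Short lists gave single results. TOM6 (AT1G49410) and TOM20-1 (AT3G27070) belong to the list for import through the mitochondrial outer membrane. They had 0.0893 to 0.190 and 0.0893 to 0.379 CPM in prostrata and 17.9 to 23.2 and 14.3 to 15.5 CPM in rosea. Their log2 fold changes were 7.00 (SE 0.47) and 6.06 (SE 0.42). They were 2 of the 3 loci of that list with enough counts for a test, and the third was not called, at -0.32. The list summed to 13.3 to 15.0 CPM in prostrata and 45.4 to 49.3 CPM in rosea. Of their relatives, TOM20-2 had 1 count in prostrata and 0 in rosea. Among 5 plasmodesmal loci PDLP1 and PDCB2 were higher by 2.52 (SE 0.75) and 2.19 (SE 0.43), both at no more than 3.85 CPM, and PDCB3, a callose-binding protein, was lower (-1.75, SE 0.16). HKT1, a sodium transporter, was the 1 of 6 sodium and osmolyte loci called (1.00, SE 0.35), and its call was lost with library totals (0.85) and without prostrata replicate 1 (0.93) or rosea replicate 2 (0.66). Of 5 heat shock loci 0 were called with all 48 libraries and the first scaling, and 0 in DESeq2. HSP17.6II was nearest, at 1.36 (SE 0.59, adjusted p = 0.0524). It was called in edgeR with the size factors of DESeq2 (adjusted p = 0.0448) and without rosea replicate 1 (1.63, adjusted p = 0.0322), among other settings. Among these was the edgeR fit of the 6 libraries at 5 mm alone (1.41, adjusted p = 0.00037). The other 4 lay between -0.64 and 0.23.

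Among loci of at least 50 CPM in the higher species, those with the largest differences were mostly outside the lists. AT3G16150, annotated as an N-terminal nucleophile hydrolase, had 0.179, 0.190 and 0.0889 CPM in prostrata and 172, 153 and 163 CPM in rosea (9.96, SE 0.32). AT3G43583, of unknown function, had 3 counts over prostrata and 1637 over rosea, 588 times as many per scaled total (exact 95% interval for counting error 201 to 2853). Next came AT3G46650, a UDP-glycosyltransferase (6.23), AT5G59750, annotated for riboflavin synthesis (5.72), the magnesium and proton exchanger MHX (5.28), emb1997 (AT2G28880), a para-aminobenzoate synthase (5.11), and AT4G11230 (4.81), with NDHL, PNSB5 and PNSL2 filling the 10. On the lower side PAO1 (AT5G13700), a polyamine oxidase, stood at 1431, 1137 and 1485 CPM in prostrata and 5.47, 6.34 and 6.68 CPM in rosea (-7.77, SE 0.37). AT4G21960, a peroxidase, had 745, 677 and 817 CPM against 6.09, 8.51 and 6.85 CPM (-6.70, SE 0.43). The chitinases HCHIB (AT3G12500) and AT1G02360 varied among prostrata libraries, at 499, 158 and 248 CPM and at 175, 54.5 and 90.5 CPM, and were at 2.43 to 5.88 and 2.69 to 5.34 CPM in rosea. Their log2 fold changes were -6.29 (SE 0.76) and -4.80 (SE 0.55). The remainder were BAM5 and BAM6, AT4G25890, an acidic ribosomal protein (-4.94), the malate synthase MLS (-4.51), EGY3 (-3.67) and the beta-glucosidase BGLU33 (-3.48).

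Whether the species differed at 5 mm as they did at neighbouring ages was tested by the difference between the species contrasts. At 1 mm 1254 loci (8.49%) were higher and 1168 (7.9%) lower, and of the loci called at 5 mm 952 higher ones (61.8% of those at 5 mm, 75.9% of those at 1 mm) and 875 lower ones (60.3% and 74.9%) were shared. At 7.5 mm 1556 (10.5%) were higher and 1581 (10.7%) lower, and 1279 higher (83.0% of 5 mm, 82.2% of 7.5 mm) and 1218 lower calls (83.9% and 77.0%) were shared. The species contrast at 5 mm differed from that at 1 mm at 155 loci (1.05%), more toward rosea at 80 (0.541%) and less at 75 (0.507%), and was wider at 5 mm at 110 of them and narrower at 45. Leaving out 1 library of 5 mm gave 89 to 124 loci, with 96, 89 and 97 without prostrata replicate 1, prostrata replicate 3 and rosea replicate 3. Against 7.5 mm the contrast differed at 1 locus in edgeR (0.00677%), the phosphatase PAP15, and 1 in DESeq2, with 427 loci under an unadjusted p of 0.05. The 6 rosea libraries of 7.5 mm ran from 2040 to 6631 CPM for PPC2 while the 6 prostrata libraries ran from 495 to 601 CPM.

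Of the 40 C4 cycle loci 25 were called higher at 1 mm, 24 at 5 mm and 23 at 7.5 mm, and their median was 1.14, 1.45 and 1.68. The lists did not follow 1 course, since from 1 mm to 5 mm the median went from 1.18 to 0.50 for carboxylation and from 0.95 to 0.55 for decarboxylases, and from 1.14 to 2.17 for aminotransferases and malate dehydrogenases. The difference between ages passed its own test for NAD-ME2 and AMK2, which were wider at 5 mm by 1.42 (SE 0.33, adjusted p = 0.0157) and 1.2 (SE 0.32, adjusted p = 0.0421), and for PPC4, with -1.04 (SE 0.23, adjusted p = 0.0114). NAD-ME2 was at 152 to 161 CPM in 1 mm prostrata leaves and 242 to 362 CPM in 1 mm rosea leaves. For PPC2, PPDK, NAD-ME1, BASS2 and DIC1 the corresponding differences were 1.17 (SE 0.44), 1.28 (SE 0.45), 0.95 (SE 0.38), 1.08 (SE 0.32) and 1.24 (SE 0.50), none with an adjusted p under 0.05. The AMK2 call was lost in each fit that left out 1 of the 6 libraries (adjusted p 0.0549 to 0.0957) and that of NAD-ME2 without prostrata replicate 3 (0.0576). PPC4 lost its call without prostrata replicate 3 (-0.91, adjusted p = 0.0605) and was just under the fold limit without rosea replicate 3 (-0.97) and in 4 other settings, among them no filter on low counts (-0.98). In the cyclic electron transport list, NDHS (AT4G23890), an NDH subunit that binds ferredoxin, had a difference of 2.14 (SE 0.41, adjusted p = 0.00398) between the ages; it falls outside the rule for named loci and was chosen after its values were seen. That list's median was 2.75 at 1 mm, 3.67 at 5 mm and 2.96 at 7.5 mm.

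**Figure D4:**
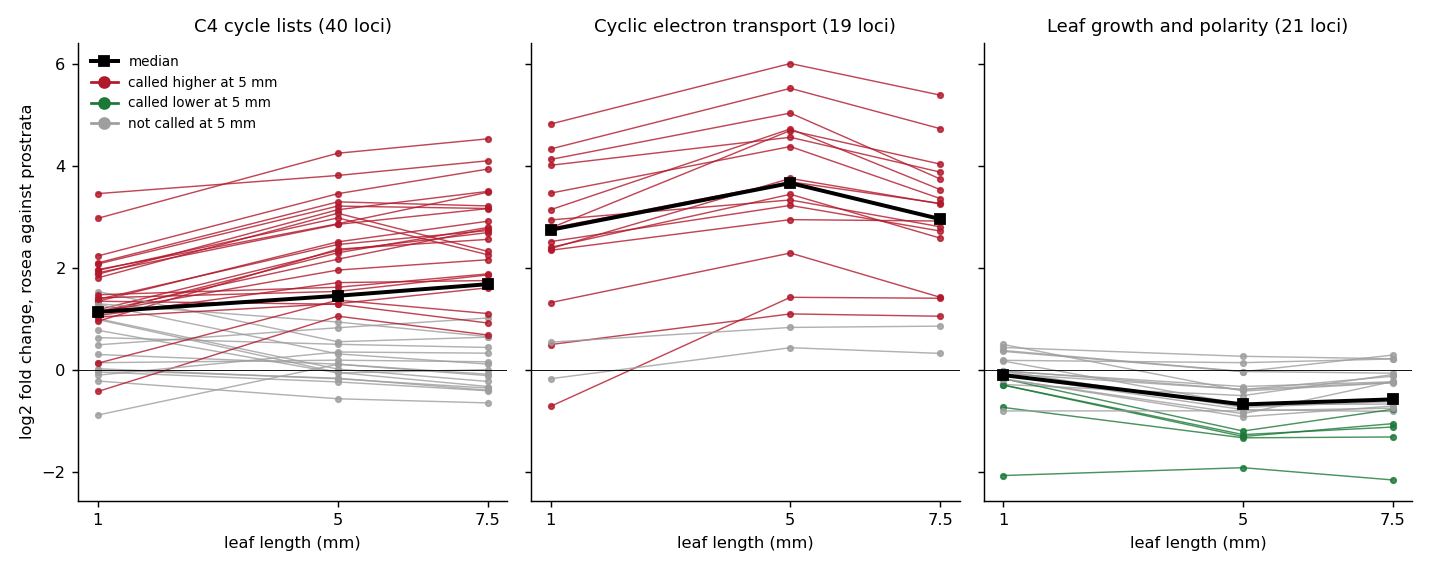
Log2 fold change of rosea against prostrata (vertical) in leaves of 1, 5 and 7.5 mm (horizontal) for the C4 cycle, cyclic electron transport and leaf growth lists. Thin lines are loci, red where called higher at 5 mm, green where called lower and grey where not called; the black line is the median, which runs from 1.14 to 1.68 for the C4 lists and from 2.75 over 3.67 to 2.96 for cyclic electron transport.

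The ages were matched by index, and the libraries were also placed by their own expression. From 1 mm to 7.5 mm 379 loci (2.56%) rose and 249 (1.68%) fell in prostrata, 628 in all (4.25%), and 776 (5.25%) rose and 521 (3.53%) fell in rosea, 1297 in all (8.78%). At 313 loci that changed in the same direction from 1 mm to 7.5 mm in both species, the median position of a 5 mm library, with 0 at the 1 mm mean and 1 at the 7.5 mm mean of its own species, was 0.711, 0.799 and 0.589 in prostrata and 0.860, 0.917 and 0.973 in rosea. The rosea libraries were all nearer to 7.5 mm leaves than the prostrata libraries, and the species did not overlap. For the 188 rising loci the positions were 0.631, 0.670 and 0.491 against 0.840, 0.902 and 0.973, while for the 125 falling loci, at 0.825 to 0.990 and 0.905 to 0.978, they overlapped. Of the rising loci 81 were higher and 7 lower in rosea at 5 mm (median 0.85), and of the falling loci 9 were higher and 41 lower (median -0.66). The part of this offset in the results for photosynthesis and leaf growth was not tested.

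**Figure D5:**
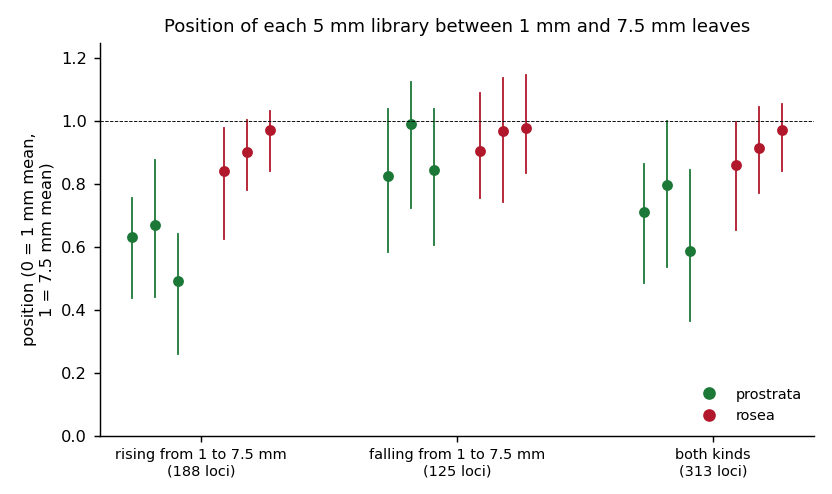
Position of each 5 mm library between the 1 mm mean (0) and the 7.5 mm mean (1, dashed) of its species, for 188 rising, 125 falling and all 313 loci that changed in the same direction in both species. Points are medians over loci and vertical lines run between quartiles, green for prostrata and red for rosea; over all loci prostrata lies at 0.589 to 0.799 and rosea at 0.860 to 0.973.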

How the data were processed

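The deposited table holds read counts per locus, which the authors assigned to Arabidopsis loci (TAIR10, per the submitters' processing notes, which also name CASAVA and DESeq2); the sources used here name no aligner or counter. Libraries were made with a TruSeq RNA kit and sequenced 12 to a lane, per the labels' protocols. Of 21976 rows, 5 with shifted columns were left out and 21971 were used. Count columns of 48 samples were matched by name to the labels, and 72 per-sample columns were not used, 12 of counts that matched no single sample and 60 of RPM. Nothing states that replicates came from separate plants, so the p-values cover spread that may be technical. Counts were fitted with edgeR 4.0.16 (R 4.3.3, limma 3.58.1) on all 48 libraries, with TMM scaling, its filter on low counts and the quasi-likelihood test. The SE was taken as the size of the log2 change over the root of its F statistic. A call needs a Benjamini-Hochberg adjusted p under 0.05 over all loci tested and a log2 fold change of at least 1. The common biological coefficient of variation was 15.7% over these 48 libraries. It was 8.13% in a fit of the 6 libraries at 5 mm and 9.96% in a fit of the 24 whole-leaf libraries. The tests at 5 mm thus draw on spread at other ages and in parts of older leaves. In counts simulated from these libraries for the 5 mm comparison (14779 loci), 72% of 100 loci changed 2-fold and 98% of 100 changed 4-fold were recovered by adjusted p. The changed loci were drawn only from loci above a minimum expected count, so these shares do not cover loci of low counts. The fold limit was not applied to them, so they are not the share that would be called. No other loci were changed in the simulation, whereas 7375 loci had an adjusted p under 0.05 in the data. The adjustment depends on how many loci change, so these shares do not carry over to the comparison itself. DESeq2 1.42.0, other scalings and filters, and leaving out each library were tried as alternatives. Columns of fold change and q-value in the authors' deposited table were only compared with these results.

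The 25 gene lists hold 398 loci, 323 of them in the table. Members and lists were chosen with earlier results of these data known. The text names the anchors PPC2, PPDK, NAD-ME1, NAD-ME2, BASS2, DIC1, BCA1, RBCS1A, RCA, CYCB1;1 and STM, up to 4 called members per list with the largest absolute change, in some cases short lists of up to 12 members whole, the 10 highest and 10 lowest called loci with a mean of at least 50 CPM in the higher species, and the 6 highest and 6 lowest called differences between ages with a mean of at least 20 CPM. Other loci, such as SBPASE, GLDH3, KAN1, SHR, SCR, MUTE, FAMA, CCA1, LHY, BAM1, BAM3 and MEX1, were chosen after their values were seen. No sequences were used.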

Additional observations from a re-analysis of the deposited data

Results flagged for a closer look

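These loci have a species difference in 5 mm leaves that differs from that in 1 mm leaves by edgeR's test of the difference itself, given here as the log2 fold change of rosea over prostrata at 5 mm minus that at 1 mm. Positive values were found for CYP712A1 (2.89), AT4G19720 (2.55), AT3G16150 (2.38), AT1G21400 (2.37), CYFBP (2.36), AT5G09300 (2.18), NDHS (2.14), NAD-ME2 (1.42), XTH8 (1.31), AMK2 (1.2) and GLDH2 (1.15). Negative values were found for HCHIB (-4.52), KNAT1 (-4.17), AT1G02360 (-3.09), the lipid transfer protein LTP2 (-2.22), ATC (-2.08), the acyltransferase GPAT1 (-2.00), AT4G25890 (-1.63), PDF2 (-1.06) and PPC4 (-1.04). NDHS and PDF2 were chosen after their values were seen. The calls of AT1G21400, AT4G19720, AT5G09300, ATC, CYFBP, HCHIB, KNAT1 and NDHS held under every alternative run.

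AT1G21400 and AT5G09300, both annotated as thiamin diphosphate-binding enzymes, had lower values at 5 mm than at 1 mm in every prostrata library and overlapping values in rosea. AT1G21400 was at 20.8, 24.3 and 22.1 CPM in 1 mm prostrata leaves and 4.64, 2.75 and 5.87 CPM at 5 mm, and in rosea at 63.4, 62.7 and 57.5 CPM and then 54.5, 65.9 and 67.2 CPM. AT5G09300 was at 43.2, 42.6 and 43.8 CPM and then 10.1, 7.30 and 10.3 CPM in prostrata, and at 79.6 to 89.8 CPM and then 74.0 to 89.6 CPM in rosea. KNAT1 was at 24.1 to 26.4 CPM in 1 mm prostrata leaves and 12.9 to 17.8 CPM in 1 mm rosea leaves. The phosphatase PAP15 was the 1 locus whose difference at 5 mm differed from that at 7.5 mm, by 1.51 (SE 0.23, adjusted p = 0.00114). Its species difference was narrower at 5 mm than at 7.5 mm, where rosea was the lower species. At 5 mm it was at 14.9 to 22.8 CPM in prostrata and 20.7 to 24 CPM in rosea.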

How the results depend on the processing

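Over all alternatives 1231 to 1763 loci were higher and 1250 to 1917 lower in rosea, and leaving out 1 library gave 1498 to 1606 and 1292 to 1492. An adjusted p alone gave 3475 and 3900, and 259 loci for the difference between 5 mm and 1 mm. That difference was called at 155 loci, at 89 to 124 without 1 library, at 212 with DESeq2 and at 338 with the 24 whole-leaf libraries alone, a fit chosen after seeing the data, in which 148 of the 155 were shared and the difference from 7.5 mm was called at 2 loci. Replicate numbers do not pair the samples: deviations of same-numbered libraries correlated at -0.111, 0.036 and 0.023. A fit of the 6 libraries with the replicate number as a block gave 1487 higher and 1250 lower, against 1489 and 1258 without it. For 97 named loci, 1428 of 1447 values kept direction and call, 18 kept direction and lost the call, and 1 reversed. That was STM, which ran from -0.92 without rosea replicate 1 to 0.22 without rosea replicate 3. Most of the 97 were picked for large changes, so their calls were likely to hold. They leave out several loci near the fold limit, among them DIC2, KAN1 and LUX, whose calls were lost in some settings. The median changed sign with the setting for the epidermis, starch, sodium and heat shock lists. Depth limits loci such as STM, with 17 counts over the prostrata libraries and 13 over the rosea libraries, and 5037 loci had no counts in any library used.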

Other observations

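Families were also counted by words in the locus descriptions, a choice made after seeing the data and given without a test, beside 10.4% higher and 9.82% lower over all loci. Of 9 loci described as chitinases 1 was higher and 6 lower in rosea (median log2 fold change -1.60). UDP-glycosyltransferases were higher at 16 and lower at 5 of 67 (median 0.30), and lipid transfer proteins higher at 8 and lower at 4 of 16 (median 0.86). MYB loci were higher at 3 and lower at 11 of 44 (median -0.38), WRKY loci higher at 3 and lower at 7 of 40 (median -0.57), and F-box loci higher at 7 and lower at 17 of 70 (median -0.27). Cytochrome P450 loci were split, 27 higher and 26 lower of 104.

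Loci encoded in the organelle genomes stood in opposite directions. Of 84 plastid loci 13 were higher and 0 lower (median 0.39), and of 54 mitochondrial loci 5 were higher and 28 lower (median -1.30). Called loci were 15.5% of the plastid and 61.1% of the mitochondrial loci, beside 20.3% of all loci. Some of these loci had identical counts in every library used and are not separate readings. Examples are the plastid pair RPL23.1 and RPL23.2, and the mitochondrial COX3 with the nuclear locus AT2G07687. Plastid loci took 0.0213% to 0.0820% of counts per library and mitochondrial loci 0.0159% to 0.0589%, and prostrata replicate 3 had the highest share of both. The part of that library in these counts was not tested.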
